A study of Mus musculus with 18 samples.

Results

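The genes described here make up the interferon response and antigen presentation: sensors of foreign RNA, the factors that carry the interferon signal, antiviral effectors, interferon-inducible GTPases, and the class I and class II antigen presentation machinery. They were chosen by name as a list of 34 mouse genes, and 32 of them had a probe set annotated to that symbol alone, out of 18781 genes annotated in this way among 35382 probe sets. The remaining members, Igtp and H2-D1, were represented only on probe sets shared with close relatives and were left out of the member counts. The 32 measured genes had 51 probe sets, of which Nlrc5 had 19 and Irf1 had 2, and where a gene had several, the brightest one on average was used.

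The arrays came from C57BL/6 mice that carry a transgene for TN-XXL, a fluorescent calcium indicator built on troponin C, and from their wild type littermates. Total RNA of skeletal muscle, heart and hippocampus was labelled with biotin and hybridised to Affymetrix whole-transcript arrays, 3 for each of the 6 groups of genotype and tissue, 18 in all. The titles mark the transgenic arrays as "+/+", and the promoter that drives the transgene, the number of lines, and the age and sex of the mice are not stated in the labels. Nor do they say whether arrays came from separate animals or whether one animal gave several tissues, so the p-values measure the spread between these samples, which may be technical. Arrays of a group correlated at r = 0.982 to 0.993 over all probe sets, and muscle, heart and brain markers were highest in the tissues so labelled.

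Interferons bind receptors that activate Jak kinases and Stat factors. Type I interferon acts mainly through a complex that contains Stat2 and Irf9, and interferon gamma acts in part through Irf1, to induce large sets of antiviral and antigen presentation genes. Class I molecules (a heavy chain such as H2-K1 with B2m) show peptides from the cytosol on most cells, whereas class II molecules (H2-Aa, H2-Ab1 and H2-Eb1, loaded with the help of Cd74) are characteristic of macrophages, dendritic cells and B cells. In healthy skeletal muscle, heart and brain, class II transcripts are therefore expected mainly from resident immune cells, while class I genes can be transcribed by many cell types. In RNA from whole tissue, a change in the number of cells of a type and a change in RNA per cell cannot be told apart.

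A sequence that interferon-responsive factors are known to read was found in promoters of the list at a higher share than in those of all genes. The search took the 250 bases upstream of each start in RefSeq's table (GRCm38.p6), on both strands. The interferon-stimulated response element, searched as GAAA, any 2 bases, GAAA, was found for 10 of the 25 listed genes present in that table (40%), against 936 of 27025 genes (3.46%); the 10 were Stat2, Ifit1, Ifit3, Isg15, Rsad2, Gbp2, Gbp3, Igtp, Irgm1 and B2m. A match is a description of letters and not a tested binding site, and overlapping matches were each counted. Below are the 120 bases upstream of the start for 4 genes with the response element, each written 5′ to 3′ on the strand of the gene with the matches in capitals; on the other strand the element reads TTTC, any 2 bases, TTTC. They were picked after the values were seen, as motif-holding genes that stood high on transgenic heart array 2. Neither H2-Aa nor H2-K1, which changed with genotype, held this motif in the window.
Gbp3 (chr3:142559924-142560043, + strand): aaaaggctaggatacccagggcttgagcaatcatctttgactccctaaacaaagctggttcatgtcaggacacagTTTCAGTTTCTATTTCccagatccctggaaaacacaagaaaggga
Irgm1 (chr11:48871421-48871540, - strand): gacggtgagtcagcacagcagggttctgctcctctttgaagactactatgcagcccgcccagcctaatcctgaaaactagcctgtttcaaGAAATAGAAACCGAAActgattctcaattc
Gbp2 (chr3:142620543-142620662, + strand): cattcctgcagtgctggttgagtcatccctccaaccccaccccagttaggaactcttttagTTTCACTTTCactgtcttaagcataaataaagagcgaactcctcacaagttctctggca
Ifit1 (chr19:34640769-34640888, + strand): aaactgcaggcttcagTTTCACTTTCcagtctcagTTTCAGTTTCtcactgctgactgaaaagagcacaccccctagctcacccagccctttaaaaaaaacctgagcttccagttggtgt
In Gbp3 and Irgm1 a pair of overlapping matches lay 24 to 45 bases before the start at their first base, in Gbp2 a single match began 59 bases before it, and in Ifit1 separate matches began 104 and 85 bases before it.

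Few of these genes differed by genotype beyond the threshold, an adjusted p under 0.05 over all probe sets in limma. In skeletal muscle 1 of 32 rose in transgenic mice, H2-Aa, and 0 fell; 8.15% of all probe sets were called there (3.86% higher, 4.3% lower), and 2 members had an unadjusted p under 0.05 against 19.1% of probe sets. In heart 0 of 32 were called, against 3.19% of all probe sets (1.57% higher, 1.62% lower); 7 members, all with higher values in transgenic hearts, had an unadjusted p under 0.05 against 15% of probe sets. In hippocampus 0 of 32 were called and 0% of all probe sets; 3 members had an unadjusted p under 0.05, against 5.04%. The count of 0 in hippocampus held in every alternative fit run, whereas 3 alternatives called 1 member in heart, H2-K1 or Ifit3.

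Averaged over the 3 tissues, which uses the same arrays again, 2 of 32 members rose, H2-K1 and H2-Aa, and 0 fell, against 5.8% of all probe sets (2.59% higher). No member was called in the interaction of genotype and tissue (0 of 32, 0 at an unadjusted p under 0.05, against 3.89% and 15.9% of all probe sets), so no member's genotype difference was shown to differ between tissues. The smallest adjusted interaction p-values were those of Ifit3 (0.32), Usp18 (0.357), Ifi35 (0.398) and Oasl2 (0.402).

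As log2 values, transgenic minus wild type, the list's median difference was 0.10 in muscle, 0.29 in heart and 0.10 in hippocampus, while the medians over all probe sets were 0.02, 0.0031 and -0.0077. Differences were above 0 for 22, 28 and 24 of the 32 genes in the respective tissues (68.8%, 87.5% and 75%), against 53.1%, 50.7% and 47.7% of all probe sets. All 3 transgenic arrays lay above all 3 wild type arrays for 6 members in muscle (18.8%; 11.6% of all probe sets), 5 in heart (15.6%; 9.19%) and 7 in hippocampus (21.9%; 5.95%). Those in muscle were Ifih1, Irf9, Irgm1, Tapbp, H2-Aa and H2-Eb1, those in heart were Usp18, Ifit1, Ifit3, Oasl2 and H2-K1, and those in hippocampus were Irf1, Ifit2, Isg15, Gbp3, B2m, H2-K1 and Tap1. Of the hippocampus members, all but B2m and H2-K1 had group means below the median probe set of the arrays, so their separation rests on weak signal. No member lay wholly below wild type in any tissue, which 10.3%, 9.35% and 7.37% of probe sets did.

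**Figure D1:**
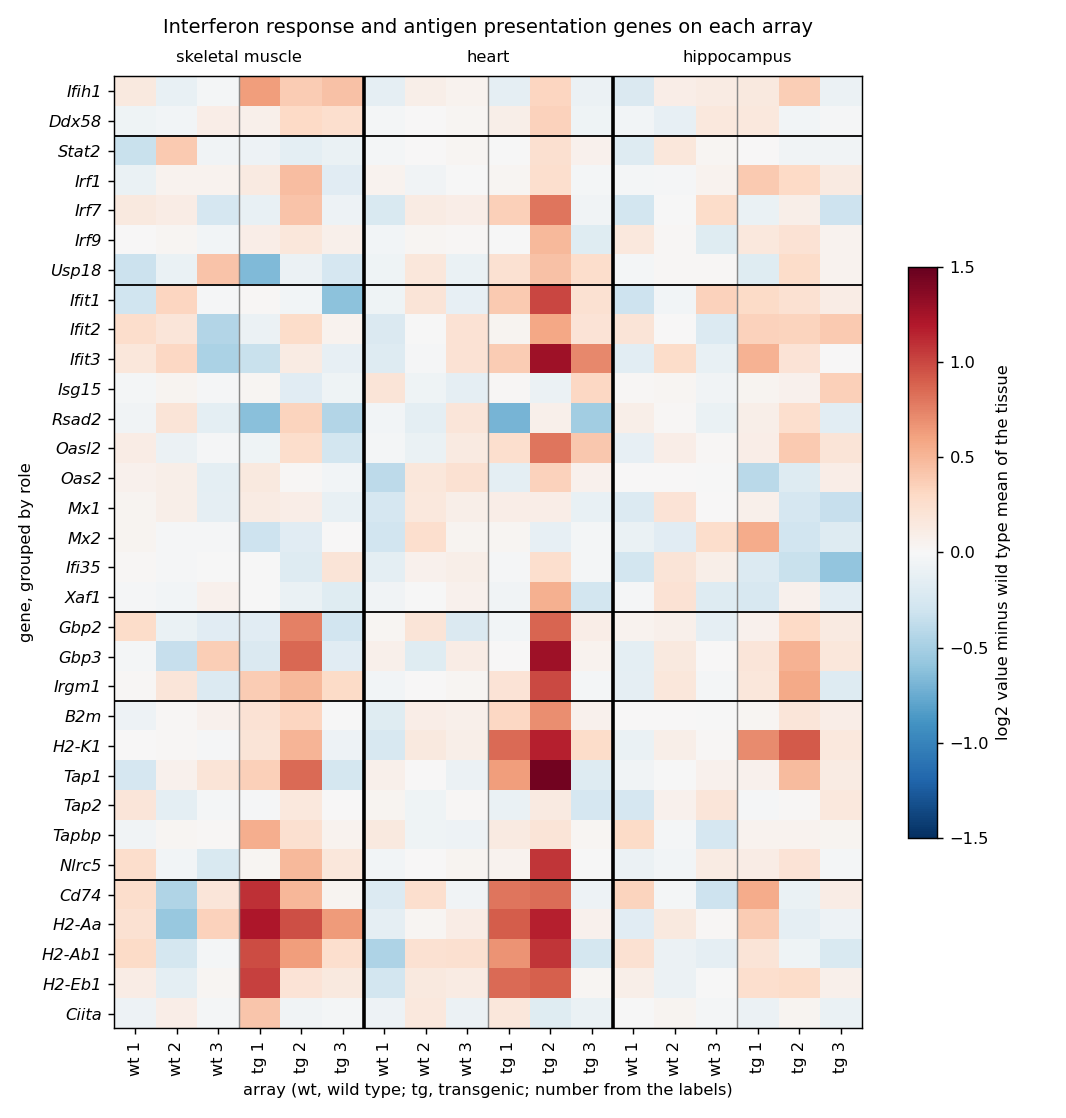
Each row is 1 of the 32 measured genes, grouped by role, and each column 1 of the 18 arrays; the colour gives the log2 value minus the mean of the 3 wild type arrays of that tissue, from blue (lower) to red (higher). Transgenic heart array 2 is the most uniformly red column, and class II genes are also red on transgenic muscle array 1 and transgenic heart array 1.

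The shift did not come from all transgenic arrays alike. Over the 32 genes the median value above the wild type mean of the tissue was 0.56 on transgenic heart array 2, but 0.10 on array 1 and -0.02 on array 3. In muscle it was 0.06, 0.27 and -0.04 on transgenic arrays 1, 2 and 3, and in hippocampus 0.11, 0.19 and 0.04. Results are therefore given below with each array, and again without array 2.

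The RNA sensors were Ifih1 (Mda5) and Ddx58 (Rig-I), cytosolic helicases that detect viral RNA and start interferon production. In muscle, the log2 values of Ifih1 were 4.37, 4.12 and 4.20 on wild type arrays and 4.86, 4.61 and 4.67 on transgenic arrays. The groups did not overlap, and the difference of 0.48 ± 0.14 (SE) just missed the threshold (limma, adjusted p = 0.0556). It passed in 3 of 17 alternatives, namely with quantile normalization (adjusted p = 0.0428), without dim probe sets (0.0366) and without array 2 of the transgenic groups (0.0365). In the other alternatives its adjusted p reached 0.179, and it was 0.101 from the muscle arrays alone. Ifih1 differed by 0.03 ± 0.14 in heart and 0.14 ± 0.14 in hippocampus, and Ddx58 by 0.21 ± 0.11, 0.12 ± 0.11 and 0.03 ± 0.11 in muscle, heart and hippocampus, with no call.

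The signalling members were Stat2 and Irf9, which are parts of the type I interferon complex, the transcription factors Irf1 and Irf7, and Usp18, which removes Isg15 from proteins and damps the receptor. None was called. Irf1 in hippocampus read 3.31, 3.31 and 3.38 in wild type and 3.73, 3.64 and 3.47 in transgenic mice; the groups did not overlap, but the difference of 0.28 ± 0.13 did not pass (adjusted p = 0.986). A second Irf1 probe set was weaker in muscle and heart but brighter in hippocampus, where its groups overlapped and differed by -0.03. Usp18 differed by -0.34 ± 0.18 in muscle (adjusted p = 0.347) and 0.31 ± 0.18 in heart (adjusted p = 0.465), without a call in either or in the interaction. Stat2 was close to level in all tissues, with differences of -0.11, 0.10 and -0.04. Irf7, whose own transcription follows interferon, read 4.61, 5.06 and 4.20 in transgenic heart against 4.03, 4.38 and 4.36 in wild type heart, so array 2 was highest and array 3 lay within the wild type range.

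Among the 11 antiviral effectors, 9 of 11 differences were above 0 in heart (median 0.08) and 8 of 11 below 0 in muscle (median -0.06), with no call in either. Of all probe sets, 50.7% were above 0 in heart and 53.1% in muscle. Without transgenic heart array 2, 5 of 11 were above 0 in heart and 6 below (median -0.0011), so the direction in heart rested on that array. Ifit3, which binds foreign RNA together with Ifit1, read 3.42, 3.60 and 3.83 in wild type heart and 4.0, 4.90 and 4.34 in transgenic heart. Every transgenic heart exceeded every wild type heart, by 0.79 ± 0.24 on average, or 1.73-fold (adjusted p = 0.0965); the value passed only when transgenic heart array 1 was left out (adjusted p = 0.0468). Oasl2, related to the oligoadenylate synthetases that mark viral RNA for decay, gave 5.36, 5.29 and 5.52 in wild type heart and 5.64, 6.19 and 5.80 in transgenic heart. Its groups did not overlap either, and its difference of 0.49 ± 0.15 was not called (adjusted p = 0.104). Ifit1 in heart differed by 0.54 ± 0.23 (adjusted p = 0.258), again with no overlap between the groups, and by 0.31 without transgenic array 2 (adjusted p = 0.615).

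The effectors did not move as a block. Rsad2 (viperin, which makes a chain-terminating nucleotide) gave 5.75, 5.64 and 5.97 in wild type heart and 5.09, 5.86 and 5.27 in transgenic heart, and 4.02, 4.27 and 3.92 against 3.44, 4.40 and 3.63 in muscle. In both tissues transgenic arrays 1 and 3 lay below all wild type arrays while array 2 lay within their range in heart and above it in muscle, and the differences of -0.25 ± 0.23 in muscle and -0.38 ± 0.23 in heart were not called. When array 2 of every transgenic group was left out, a check added after the values were seen that keeps 2 arrays a group, Rsad2 fell by 0.54 in muscle (adjusted p = 0.0409) and by 0.39 averaged over tissues (adjusted p = 0.0188). Rsad2 was highest on transgenic array 2 in all 3 tissues, so this omission was bound to lower its difference. In hippocampus Ifi35 read 2.93, 3.40 and 3.30 in wild type and 3.00, 2.88 and 2.61 in transgenic mice, a difference of -0.38 ± 0.14 that was not called (adjusted p = 0.889). Ifit2 there read 3.37, 3.18 and 2.97 against 3.52, 3.51 and 3.56, a difference of 0.36 ± 0.18 (adjusted p = 1). Isg15 and Mx1 lay below the median probe set of their arrays in every group, and Mx2 did in muscle and hippocampus, so their differences (-0.17 to 0.15) rest on weak signal; Oas2 and Xaf1 differed by -0.17 to 0.09.

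The interferon-inducible GTPases attack the vacuoles of intracellular microbes. Gbp3 read 4.44, 4.18 and 4.48 in wild type heart and 4.37, 5.64 and 4.41 in transgenic heart. Transgenic array 2 stood 1.25 above the mean of the other transgenic hearts, which lay inside the wild type range. Irgm1 in heart read 4.76, 4.80 and 4.83 in wild type and 5.0, 5.79 and 4.77 in transgenic mice, with array 2 far above the rest and array 1 slightly above wild type. Gbp2 read 4.93, 5.10 and 4.69 against 4.86, 5.78 and 5.01, again with only array 2 outside the wild type range. Their heart differences were 0.44 ± 0.32, 0.39 ± 0.22 and 0.31 ± 0.26 in the same order, none called, and 0.03, 0.09 and 0.03 without transgenic heart array 2. In muscle, Gbp3 (3.23, 4.31 and 3.27) and Gbp2 (3.99, 4.92 and 3.87) were again high on transgenic array 2 alone, whereas Irgm1 was above all wild type arrays on each transgenic array (5.41, 5.52 and 5.32 against 5.05, 5.21 and 4.83; difference 0.38 ± 0.22, adjusted p = 0.388). A probe set shared by Igtp and Irgm2, outside the member counts, read 5.33, 5.32 and 5.21 in wild type heart and 5.85, 7.12 and 5.40 in transgenic heart. Array 2 was again by far the highest, but in each tissue every transgenic array lay above every wild type array. Its heart difference of 0.84 ± 0.28 was not called (limma, adjusted p = 0.142).

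Of class I, H2-K1, the heavy chain that holds the peptide, had the smallest adjusted p of any member in the mean over tissues. Its values were 5.25, 5.25 and 5.22 in wild type muscle and 5.43, 5.75 and 5.16 in transgenic muscle. They were 5.93, 6.32 and 6.26 in wild type heart and 7.02, 7.33 and 6.44 in transgenic heart. In hippocampus they were 4.30, 4.49 and 4.42 in wild type and 5.12, 5.32 and 4.56 in transgenic mice. All transgenic arrays exceeded all wild type arrays in heart and hippocampus but not in muscle, and transgenic array 3 was the lowest of its group in each tissue. The mean difference over tissues was 0.52 ± 0.13, or 1.43-fold (adjusted p = 0.0229); the single-tissue differences of 0.21 ± 0.22 in muscle, 0.76 ± 0.22 in heart and 0.60 ± 0.22 in hippocampus were not called (adjusted p = 0.704, 0.0815 and 0.889). The SE of the mean, also for H2-Aa below, counts arrays of different tissues as independent. The labels do not say whether 1 animal gave several tissues, in which case it would not hold. The mean was no longer called without wild type heart array 1 (adjusted p = 0.0502), without transgenic hippocampus array 2 (0.0523), from muscle and heart arrays alone (0.0994), or without array 2 of every transgenic group (0.35, adjusted p = 0.131). In heart, H2-K1 passed without transgenic heart array 3 (1.00, adjusted p = 0.0257). Class I heavy chains are close copies of each other, so a probe set named for one may also bind others. A brighter probe set annotated to H2-K1 together with H2-D1 and a further symbol gave a mean difference of 0.29 over tissues and was not called (adjusted p = 0.143).

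**Figure D2:**
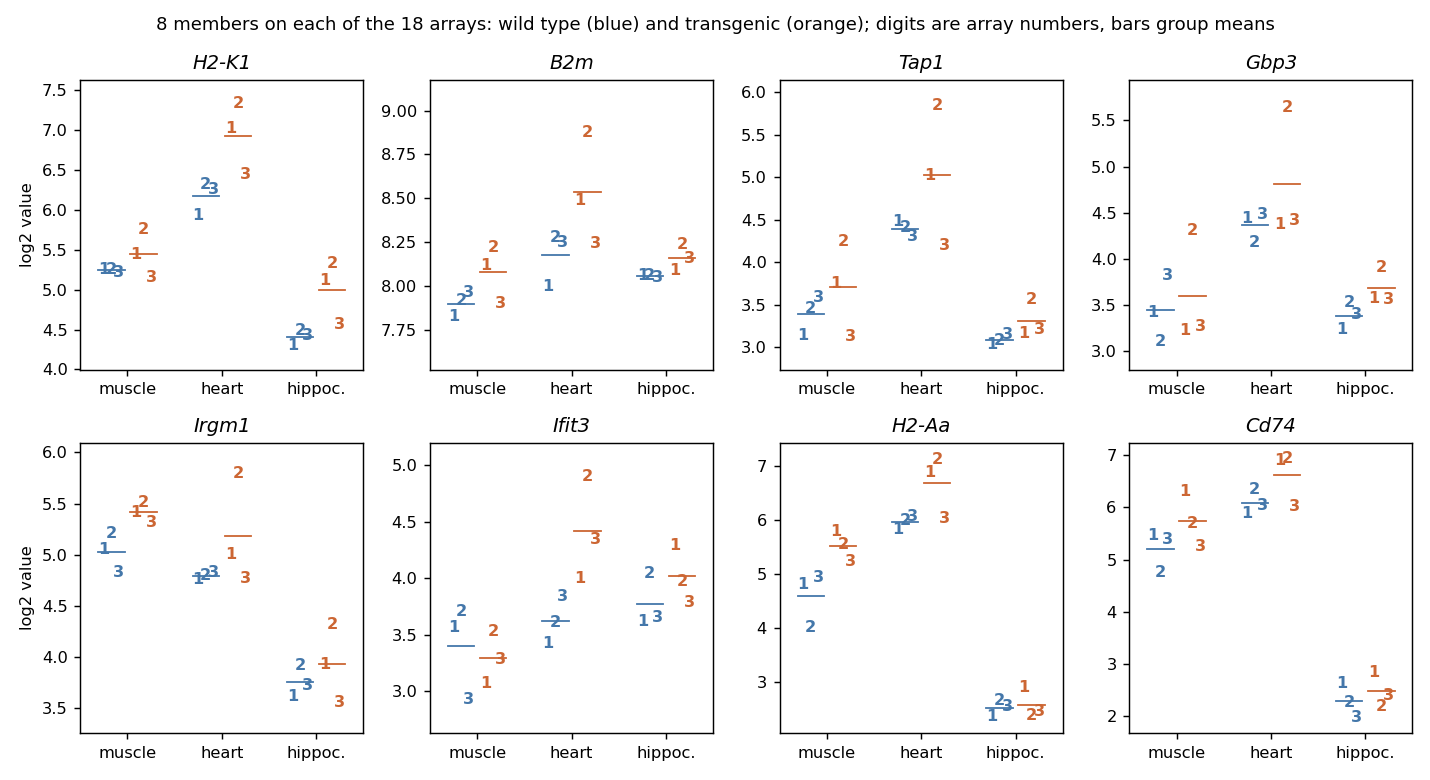
Log2 values of 8 members in each tissue, with each digit an array by its number, wild type in blue and transgenic in orange, and a bar at each group mean; the vertical scale differs between panels. Transgenic array 2 is the highest transgenic array of H2-K1, B2m, Tap1, Gbp3 and Irgm1 in all 3 tissues, while for H2-Aa and Cd74 transgenic array 1 is the highest in muscle and hippocampus.

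B2m, the shared light chain of class I, read 8.0, 8.28 and 8.25 in wild type heart and 8.49, 8.88 and 8.24 in transgenic heart, so transgenic array 3 lay within the wild type range. The difference was 0.36 ± 0.13 in heart (adjusted p = 0.188) and 0.21 ± 0.08 averaged over tissues (adjusted p = 0.133), and 0.19 and 0.12 without array 2 of every transgenic group. Tap1, a subunit of the transporter that brings peptides to class I, had one of the widest spreads, with 4.47, 4.40 and 4.31 in wild type heart and 5.02, 5.85 and 4.20 in transgenic heart. It differed by 0.63 ± 0.32 (adjusted p = 0.387), or by 0.22 without transgenic heart array 2, and its partner Tap2 by -0.07 ± 0.12. Tapbp (tapasin, which joins class I to the transporter) read 6.25, 6.34 and 6.33 in wild type muscle and 6.86, 6.55 and 6.36 in transgenic muscle; the groups did not overlap, but the difference of 0.28 ± 0.13 was not called (adjusted p = 0.268).

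Nlrc5, the transactivator of class I genes, allowed a check over many probe sets of 1 gene. Its brightest probe set read 4.95, 5.0 and 5.03 in wild type heart and 5.05, 6.06 and 4.99 in transgenic heart. On transgenic heart array 2, 17 of its 19 probe sets were the highest of the transgenic hearts, against 33.3% of all probe sets. On that array 17 exceeded all wild type hearts, a count for which no such share is given. Mean levels over all arrays ran from 2.09 to 5.06, and some of the 19 lay below the median probe set in wild type heart. Of the 19 probe sets, 0 were called in any genotype comparison. Their lowest adjusted p was 0.121 in heart and 0.0859 averaged over tissues. These probe sets share the same RNA and are not replicates.

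The class II genes gave the largest differences in muscle, where their median was 0.55 and all 5 were above 0. H2-Aa, the alpha chain of I-A, read 4.81, 4.01 and 4.93 in wild type muscle and 5.79, 5.55 and 5.22 in transgenic muscle. Every transgenic array lay above every wild type array, and wild type array 2 stood below the others. H2-Aa rose by 0.94 ± 0.27, or 1.92-fold (adjusted p = 0.0451). The call was a narrow one and ended without wild type muscle array 1 (adjusted p = 0.0585) or 2 (0.198), without transgenic muscle array 1 (0.148) or 2 (0.109), and from the muscle arrays alone (0.157); without wild type array 2 the difference itself was 0.65. In heart H2-Aa read 5.83, 5.99 and 6.07 against 6.88, 7.12 and 6.03, and its difference of 0.71 ± 0.27 was not called (adjusted p = 0.205). Averaged over tissues it rose by 0.57 ± 0.16 (adjusted p = 0.0451). Its adjusted p was under 0.05 in 12 of 29 alternatives and between 0.00821 and 0.147 over all of them. The 12 include the stricter threshold of 0.01, at which the same adjusted p of 0.0451 was not called.

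The beta chains and Cd74 (the invariant chain) followed H2-Aa without reaching a call. H2-Ab1 read 4.69, 4.14 and 4.37 in wild type muscle and 5.38, 5.03 and 4.65 in transgenic muscle, with array 3 just inside the wild type range (0.62 ± 0.29, adjusted p = 0.27). H2-Eb1 read 5.29, 5.03 and 5.20 against 6.19, 5.38 and 5.32 in muscle, where array 1 stood far above the rest, and 6.16, 6.58 and 6.55 against 7.28, 7.32 and 6.46 in heart. Its mean difference over tissues was 0.42 ± 0.13 (adjusted p = 0.0925). Cd74 read 5.89, 6.34 and 6.04 in wild type heart and 6.89, 6.93 and 6.02 in transgenic heart, so arrays 1 and 2 were high and array 3 was at the wild type level. Ciita, the master regulator of class II, lay below the median probe set of its arrays in every group and differed by 0.11, -0.04 and -0.05.

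Macrophage markers in muscle were, like class II, highest on transgenic array 1, but their groups overlapped. The summed level of the 16 measured macrophage and microglia markers (of 18 listed), as the log2 of summed linear values, was 8.40, 7.74 and 8.07 on wild type and 8.73, 8.33 and 8.36 on transgenic muscle arrays. Array 2 was the lowest wild type array and array 1 the highest transgenic array, as for H2-Aa. Summed class II levels were 7.14, 6.62 and 7.07 on wild type and 7.99, 7.47 and 7.18 on transgenic muscle arrays. Their wild type arrays ranked as for the markers, although for H2-Aa alone array 3 was the highest. The lowest transgenic array was 2 for the markers, close to 3, and 3 for class II and H2-Aa. Of the 16, 1 rose in muscle, Cd68 (a lysosomal protein of macrophages), by 0.93 ± 0.16 (adjusted p = 0.00165; 0.073 from the muscle arrays alone), and 0 fell, against 8.15% of all probe sets called; the median difference was 0.18. In heart the summed marker levels were 9.45, 9.57 and 9.75 in wild type and 9.67, 9.82 and 9.69 in transgenic mice. There 0 of 16 were called, against 3.19% of all probe sets. The summed class II levels of transgenic hearts were 8.91, 9.07 and 8.06. Array 2 was thus the highest transgenic heart for both, while the lowest was array 1 for the markers, close to array 3, and array 3 for class II. Of 18 lymphocyte markers and 10 dendritic cell and granulocyte markers measured, 0 were called in any genotype comparison. The shares of all probe sets called were 8.15% in muscle, 3.19% in heart, 0% in hippocampus and 5.8% averaged over tissues. In lists of this size a count of 0 is near such shares and is no result about these cells. Of 12 endothelial markers, 4 fell in transgenic muscle (Tek, Emcn, Cldn5 and Egfl7) and 2 in heart (Tek and Cldn5), where 8.15% and 3.19% of all probe sets were called, although from the arrays of the tissue alone the one call left was Tek in muscle (adjusted p = 0.0314); their summed levels were 10.19 to 10.35 against 9.77 to 10.12 in muscle and 11.41 to 11.48 against 11.02 to 11.22 in heart. The part of these cell types in the values of the listed genes was not tested.

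Transgenic array 2 stood out most in heart. It was the highest of the transgenic hearts for 28 of 32 members (87.5%), against 33.3% of all probe sets; the exceptions were Mx1, Mx2, Ciita and Isg15, of which all but Mx2 lay below the median probe set of the heart arrays. It was also the highest for 17 members in muscle (33.3% of all probe sets) and 16 in hippocampus (31.9%). For 12 of 32 members (37.5%) the array numbered 2 was the highest transgenic array in all 3 tissues, against 3.8% of all probe sets. These were Irf7, Irf9, Usp18, Rsad2, Oasl2, Gbp2, Gbp3, Irgm1, B2m, H2-K1, Tap1 and Nlrc5. The labels do not say that arrays numbered alike came from the same animal. Deviations from the group mean on the transgenic arrays numbered 2 correlated between tissues at r = -0.02 to 0.05. This used only the probe sets whose mean lay above the median of all values.

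On transgenic heart array 2 the excess over the mean of the other transgenic hearts was at least 0.5 on the log2 scale for 15 of 32 members (46.9%), against 4.93% of all probe sets. The largest were Gbp3 (1.25), Tap1 (1.23), Nlrc5 (1.05), Irgm1 (0.91), H2-Ab1 (0.87) and Gbp2 (0.85). Among 45 other measured interferon-stimulated genes (of 54 listed), 7 reached it (15.6%). Median excess was 0.48 for the members, 0.20 for the other interferon-stimulated genes and -0.01 for all probe sets. By role, the median value above wild type on this array was 0.99 for the GTPases, 0.89 for class I and 0.89 for class II, but 0.44 for signalling, 0.35 for the antiviral effectors and 0.33 for the sensors.

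**Figure D3:**
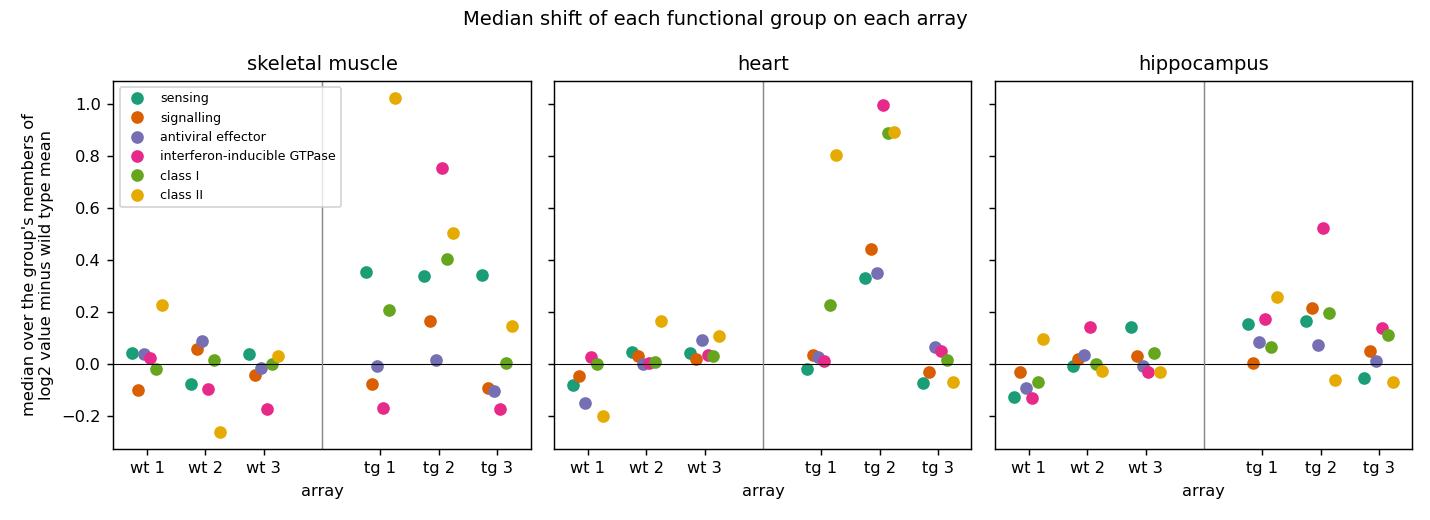
Each point is the median over the genes of a role of the log2 value minus the wild type mean of the tissue, 1 panel per tissue and 1 position per array. On transgenic heart array 2 all 6 roles are between 0.33 and 0.99, on transgenic muscle array 2 the GTPases stand highest at 0.75, and class II is high on transgenic muscle array 1 (1.02) and transgenic heart array 1 (0.80).

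The class II genes did not follow array 2 alone. Their median above wild type was 1.02, 0.50 and 0.15 on transgenic muscle arrays 1, 2 and 3, and 0.80, 0.89 and -0.07 on transgenic heart arrays 1, 2 and 3. Transgenic muscle array 1 was the highest of its group for 5 of 5 class II genes. The median of the GTPases was -0.17, 0.75 and -0.17 in muscle and 0.01, 0.99 and 0.05 in heart; it stood highest on array 2, although Irgm1 in muscle was above wild type on each transgenic array.

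Leaving array 2 out of every transgenic group lowered the median difference of the members to 0.03 in muscle, 0.06 in heart and 0.07 in hippocampus, with 17, 23 and 21 of 32 above 0. The medians over all probe sets in this fit were 0.0079, 0.0021 and -0.0086. Array 2 was picked because many members were highest on it, so a lower difference for those members was bound to follow and tests nothing. The fit left 2 members called in muscle (5.81% of all probe sets), Ifih1 higher and Rsad2 lower, 0 in heart (1.3%) and 0 in hippocampus (0%). Averaged over tissues 1 was called (3.57%), Rsad2, which was lower. In heart 4 members had an unadjusted p under 0.05 without array 2, among them Rsad2, which was lower (-0.61). The share of all probe sets at that threshold is not given for this fit, so the count is no result about the members.

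In wild type mice the members ranked heart above muscle, and 4 of the 5 class II genes, all but Ciita, were far lower in hippocampus. The 3 tissues did not share a scale: array medians over all probe sets were 2.44 to 2.49 in muscle, 2.61 to 2.63 in heart and 3.68 to 3.71 in hippocampus, and 78.2% of probe sets were called between hippocampus and muscle. Directions between tissues are therefore given as deposited and again after centring each array on its median and after quantile normalization over all arrays. Centring moved the median difference of all probe sets from 0.07 to -0.10 for heart against muscle, from 0.67 to -0.58 for hippocampus against muscle and from 0.61 to -0.47 for hippocampus against heart.

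Between wild type heart and muscle, 23 of 32 members were higher in heart and 0 lower, where 38.7% of all probe sets were called (25.6% higher, 13.1% lower). After centring the split was 19 higher and 1 lower, and after quantile normalization 18 and 1. The shares of all probe sets under these scalings are not given here. The highest differences in level, all higher in heart under each scaling, were those of Oas2 (3.36 ± 0.13 (SD, n = 3) in muscle and 5.17 ± 0.34 in heart, difference 1.81 ± 0.16 (SE)), Ifit2 (2.82 ± 0.39 and 4.57 ± 0.22, 1.75 ± 0.18) and Rsad2 (4.07 ± 0.18 and 5.79 ± 0.17, 1.72 ± 0.23). The lowest were Irgm1 (-0.23 ± 0.22), Ciita (-0.17 ± 0.12) and Isg15 (-0.01 ± 0.12), none called as deposited; Ciita was lower in heart after centring (-0.34, adjusted p = 0.0405) and Irgm1 after quantile normalization (-0.54, adjusted p = 0.0463).

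Ciita was higher in hippocampus as deposited, by 0.41 over muscle and 0.57 over heart, but the other class II genes were lower there. Cd74 was at 5.20 ± 0.40 in wild type muscle, 6.09 ± 0.23 in heart and 2.28 ± 0.32 in hippocampus, H2-Eb1 at 5.17 ± 0.13, 6.43 ± 0.23 and 2.83 ± 0.09, and H2-Aa at 4.58 ± 0.50, 5.96 ± 0.12 and 2.52 ± 0.16. In hippocampus all 3 lay below the median probe set of the array. The differences from muscle were -2.91 ± 0.30, -2.34 ± 0.23 and -2.07 ± 0.27 and those from heart -3.81 ± 0.30, -3.60 ± 0.23 and -3.45 ± 0.27, each called under every scaling. In all, 21 of 32 members lay below the array median in wild type hippocampus, against 4 in muscle and 3 in heart, so a genotype difference in these 21 had little signal behind it.

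**Figure D4:**
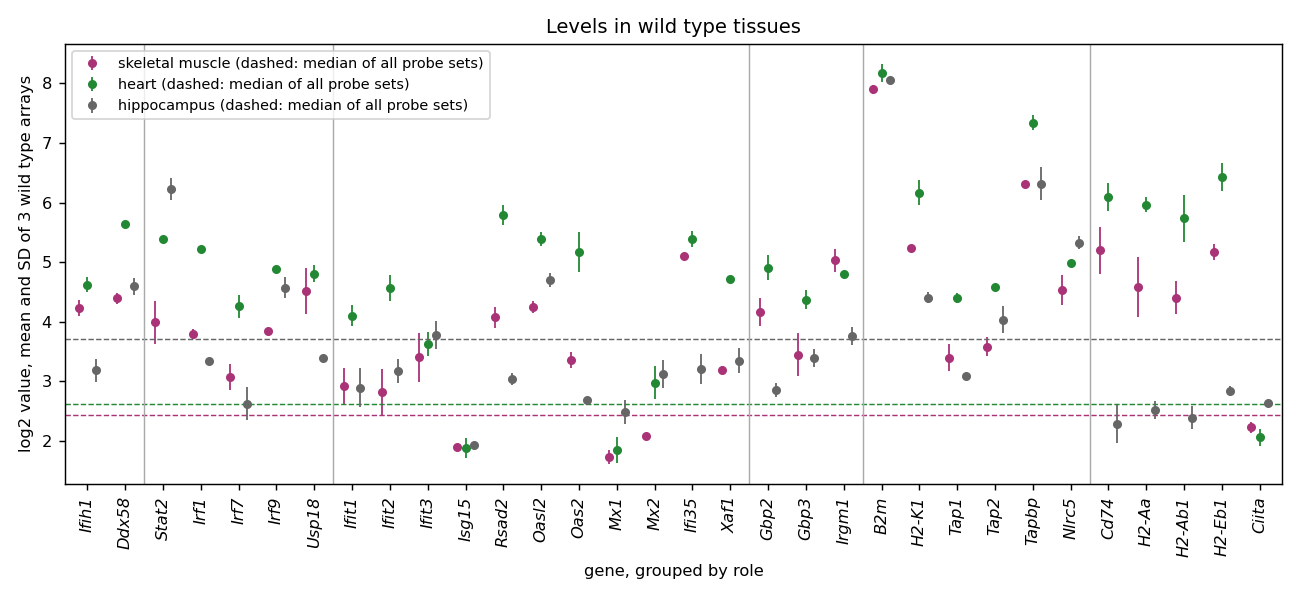
Mean log2 level of each member on the 3 wild type arrays of muscle, heart and hippocampus, with bars for the SD and dashed lines at the median of all probe sets in each tissue; levels are to be compared within a gene and not between genes. Class II genes other than Ciita lie between 2.28 and 2.83 in hippocampus and between 4.40 and 6.43 in muscle and heart, while Stat2 and Nlrc5 are highest in hippocampus as deposited.

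As deposited, 8 members were higher and 13 lower in hippocampus than in muscle, against 70.1% and 8.1% of all probe sets. After centring and after quantile normalization alike, 1 was higher and 29 were lower. Against heart, 3 were higher and 24 lower (76.8% of all probe sets were called, 67.3% higher and 9.46% lower). The split was 0 and 31 after centring and 0 and 29 after quantile normalization. Centring turned the median difference of all probe sets negative in both comparisons, as given above. Shares of all probe sets are not given for these scalings, so the rescaled counts are no result about the members. Stat2 was the highest member against muscle (3.99 ± 0.36 and 6.22 ± 0.18; 2.24 ± 0.14), which held under each scaling, and against heart (5.39 ± 0.03 and 6.22; 0.83 ± 0.14), which turned to -0.25 under either other scaling. Mx2 and Nlrc5 exceeded muscle by 1.05 ± 0.19 and 0.80 ± 0.22 as deposited, but by -0.21 and -0.46 after centring and 0.15 and -0.75 after quantile normalization. Mx1 and Ciita exceeded heart by 0.64 ± 0.14 and 0.57 ± 0.12, but by -0.45 and -0.51 after centring and 0.04 and -0.08 after quantile normalization. The dimmer Irf1 probe set went against the one used here, reading 4.61 in hippocampus against 1.80 in muscle where the other read 3.33 and 3.79.

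Upstream of the listed genes, the receptor and kinase that pass on the interferon signal changed in muscle in opposite directions. Of 26 measured genes of 31 listed among interferons, their receptors, kinases and Stat factors, 1 rose and 3 fell in transgenic muscle (8.15% of all probe sets were called there), 0 were called in heart (3.19%) and 0 in hippocampus (0%). The medians in the same tissues were 0.06, -0.01 and 0.01. Ifngr2, a chain of the interferon gamma receptor, read 9.48, 9.38 and 9.26 in wild type muscle and 10.25, 10.21 and 10.22 in transgenic muscle. It rose by 0.85 ± 0.07 with no overlap (adjusted p = 2.77e-06), and held from the muscle arrays alone (0.0114). Jak1, a kinase shared by both interferon receptors, read 8.81, 8.83 and 8.86 against 8.06, 8.09 and 8.15 and fell by 0.73 ± 0.07 (adjusted p = 1.27e-05; 0.0126 from the muscle arrays alone).

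Socs1, an inhibitor of Jak kinases, read 4.33, 5.99 and 4.57 in wild type muscle and 3.55, 3.56 and 3.25 in transgenic muscle. It fell by 1.51 ± 0.29 (adjusted p = 0.00347), or by 1.00 without wild type array 2, which stood far above the others (adjusted p = 0.000307), and was not called from the muscle arrays alone (0.145). Ptpn11, a phosphatase of the pathway, fell by 0.57 ± 0.12 (adjusted p = 0.00612; 0.109 from the muscle arrays alone). Of 20 measured genes of 23 listed for sensing of nucleic acids, 1 was called in muscle and 1 in heart, against the same 8.15% and 3.19% of all probe sets. Ticam1 (the adaptor Trif) rose in muscle by 0.85 ± 0.14 (adjusted p = 0.000822), and Mavs, the adaptor of Ifih1 and Ddx58, fell in heart by 0.43 ± 0.09 (adjusted p = 0.0159). The call on Mavs ended without wild type heart array 1 (0.0669) and from the heart arrays alone (0.125).

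The other interferon-stimulated genes were mostly not called. Of 45 measured, 2 rose and 1 fell in muscle, 1 rose in heart and 0 were called in hippocampus, with medians of -0.02, 0.08 and 0.06. These counts were below the share of all probe sets called in muscle (8.15%) and heart (3.19%), so they are no result about this list. In muscle Ifi27 fell by 0.52 ± 0.10 (adjusted p = 0.00305), Isg20, an RNA exonuclease, rose by 0.67 ± 0.15 (adjusted p = 0.0125) and Znfx1 rose by 0.33 ± 0.08 (adjusted p = 0.0223). None of the 3 passed from the muscle arrays alone (0.0626, 0.0697 and 0.174). Isg20 also failed without wild type array 2 (0.0661), and Znfx1 without transgenic array 1 (0.0946) and without wild type array 1 (0.0563) or 3 (0.0871). Gm12250, an interferon-inducible GTPase (Irgb10), read 2.16, 2.60 and 2.06 in wild type heart and 3.67, 5.29 and 3.21 in transgenic heart. All transgenic hearts were above all wild type hearts, array 2 by far the most, and it rose by 1.79 ± 0.37 (adjusted p = 0.0157); without transgenic array 2 the rise was 1.17 (adjusted p = 0.0105). It did not pass from the heart arrays alone (0.246), nor when wild type array 1 (0.0586) or 3 (0.0575) was left out.

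Other antigen presentation genes changed in both directions. Of 15 measured class I pathway genes of 17 listed, 1 fell in muscle (8.15% of all probe sets were called), and 1 rose and 1 fell in heart (3.19%), with medians of -0.03 and -0.06. Psme1, a subunit of the proteasome activator induced by interferon gamma, read 5.85, 5.66 and 5.82 in wild type muscle and 5.11, 5.17 and 4.98 in transgenic muscle, and fell by 0.69 ± 0.10 (adjusted p = 0.000288). Mr1, a class I-like molecule that shows vitamin B metabolites to T cells, read 6.24, 6.31 and 6.54 in wild type heart and 7.02, 7.19 and 7.20 in transgenic heart. It rose by 0.77 ± 0.10 with no overlap (adjusted p = 0.000444; 0.0794 from the heart arrays alone), and array 2 did not stand apart. Calr, a chaperone of class I folding, fell in heart by 0.30 ± 0.06 (adjusted p = 0.0157). It was not called when wild type array 1 (0.0677) or transgenic array 3 (0.0553) was left out, nor from the heart arrays alone (0.238).

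Of 16 measured class II pathway genes of 19 listed, 2 rose and 1 fell in muscle (8.15% of all probe sets were called), 0 were called in heart (3.19%) or hippocampus (0%), and the median in muscle was 0.16. Ctss, the protease that trims the invariant chain, read 2.51, 2.29 and 2.24 in wild type muscle and 3.63, 3.12 and 2.79 in transgenic muscle. It rose by 0.84 ± 0.19 (adjusted p = 0.0111), with the same order of transgenic arrays as H2-Aa. Ifi30, a lysosomal thiol reductase of antigen processing, rose by 0.78 ± 0.18 (adjusted p = 0.0134), but did not pass without transgenic array 1 (0.0618) or wild type array 2 (0.0652). Ctsl, another lysosomal protease, fell by 0.35 ± 0.10 (adjusted p = 0.0463), and leaving out any single muscle array ended this call (adjusted p = 0.054 to 0.164). From the muscle arrays alone none of the 3 passed (0.123, 0.108 and 0.138).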

How the data were processed

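RNA of 18 samples was measured on Affymetrix arrays, and the authors deposited 1 log2 value per probe set and array, made by RMA with R 2.10.0 (per the submitters' processing notes); no source used here gives the probe definition or says whether the tissues were normalized together. Groups came from the sample labels. Probe sets were named from the platform annotation: 21153 had 1 symbol, 1867 several and 12362 none. Values were used as deposited in 1 limma model (limma 3.58.1, R 4.3.3) with a mean for each group over all 18 arrays (12 residual and 2.67 prior degrees of freedom), two-sided, with Benjamini-Hochberg adjustment over all 35382 probe sets and calls at an adjusted p under 0.05. A value in 1 tissue thus borrows its SE from the others. The number of arrays limits the precision, and the fit was tested on simulated data.

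Members and lists were chosen with earlier results of these data known. Described in full were the called members of each genotype comparison and, where fewer than 4 passed, the 4 with the smallest unadjusted p; in tissue comparisons the 3 highest and 3 lowest; in other lists up to 4 called genes. Further members were described after their values were seen, to show array 2. Alternatives were other array sets, the replicate block, centring, quantile normalization, a filter on dim probe sets, gene means, array weights, a stricter threshold and leaving out arrays. Deviations from the group mean were correlated over the probe sets whose mean lay above the median of all values. For samples sharing a number, r was -0.07 to 0.06 between genotypes of a tissue (9 pairs) and -0.05 to 0.09 between tissues of a genotype (18 pairs). No pair exceeded 0.1, so the numbers were not taken to pair samples. Such values cannot exclude that 1 animal gave several tissues. Promoter sequences were RefSeq's, matched by symbol. Some items, 1 of the promoter motifs searched among them, are not reported here.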

Additional observations from a re-analysis of the deposited data

Results flagged for a closer look

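The interaction test of the limma model asked whether a genotype difference differed between tissues, and 3.89% of all probe sets passed. No member passed, while 4 genes of the neighbouring pathway lists, 1 macrophage marker and 1 endothelial marker did. Of the muscle, heart and brain markers, Acta1, Actc1, Nppa and Camk2a also passed and are not detailed here. Among the genes detailed, Ifngr2 had the smallest value (interaction, adjusted p = 0.000358). Its genotype differences were 0.85 in muscle, 0.23 in heart and -0.04 in hippocampus. Jak1 differed by -0.73 in muscle, 0.09 in heart and -0.11 in hippocampus (0.000671). Psme1 differed by -0.69, -0.31 and 0.05 in the same order (0.0158), and Mr1 by -0.12, 0.77 and 0.00 (0.00274). Of the macrophage and endothelial markers, Cd68 (macrophages) differed by 0.93, 0.37 and -0.22 (0.0245) and Tek (endothelium) by -0.72, -0.48 and 0.16 (0.00816).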

How the results depend on the processing

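The count of members called in muscle (1, H2-Aa) became 0 from the muscle arrays alone, with the replicate block, with array weights and at an adjusted p under 0.01, and 2 with quantile normalization and without dim probe sets (Ifih1 added) and without array 2 of every transgenic group (Ifih1, Rsad2). The count in heart (0) became 1, H2-K1 (adjusted p = 0.0372), with the replicate block. The count for the mean over tissues (2) became 1 from muscle and heart arrays (H2-Aa), with the replicate block (H2-K1), with array weights (H2-K1) and without array 2 (Rsad2, lower), and 0 at an adjusted p under 0.01. The block changed no other called member of the genotype comparisons. Its numbers were not taken to pair the samples, and the labels do not say whether arrays numbered alike came from the same animal. Leaving out single arrays gave 0 to 1 in muscle, 0 to 1 in heart (Ifit3 without transgenic array 1, H2-K1 without transgenic array 3), 0 to 0 in hippocampus and the interaction, and 0 to 4 for the mean (4 without transgenic heart array 3: B2m, H2-K1, H2-Aa and H2-Eb1; 0 without wild type heart array 1 or transgenic hippocampus array 2). It gave 19 to 22 for wild type heart against muscle, 21 to 22 for hippocampus against muscle and 26 to 27 for hippocampus against heart.

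Directions reversed between tissues after centring: Mx2 (-0.21) and Nlrc5 (-0.46) for hippocampus against muscle, and Stat2 (-0.25), Mx1 (-0.45) and Ciita (-0.51) for hippocampus against heart. They reversed with quantile normalization for Nlrc5 (-0.75), Stat2 (-0.25) and Ciita (-0.084). Isg15, near 0 between heart and muscle, ranged from -0.108 to 0.0559 with single arrays left out and reversed without wild type muscle array 2 (0.0114) and wild type heart array 2 (0.0244) or 3 (0.0559). Without array 2 of every transgenic group, the difference changed sign for 7 of 32 members in muscle (Gbp2 to -0.23 and Gbp3 to -0.20 among them), 7 in heart (Ifih1 to -0.11), 3 in hippocampus and 5 in the mean, of which 0 were called. With 3 arrays a group, differences of members below the array median, 21 of 32 in hippocampus, were the least certain.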
